A study of Mus musculus with 13 samples.

Results

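Voltage-gated sodium and calcium channel genes were followed across the cell classes of the mouse medial amygdala, a part of the forebrain involved in social behaviour. The members were all genes of the count table whose symbol was Scn followed by a digit, or Cacna, Cacnb or Cacng followed by a digit. This gave 37 of 16961 genes, which encode 9 sodium channel alpha subunits, 4 sodium channel beta subunits, 9 calcium channel alpha1 subunits, 4 alpha2delta subunits, 4 calcium channel beta subunits and 7 gamma subunits. Of these, 36 matched the reference annotation by symbol, and Scn2a1 matched by an older symbol of Scn2a.

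The tissue came from untreated C57BL/6J mice of both sexes, an inbred strain, with no transgene in any group and no drug given to the animals. There were 6 male and 7 female libraries, from mice aged 8 weeks (male replicates 3 and 5, female replicate 3) or 9 weeks (all others). Cells were captured by Drop-seq, which pairs single cells with barcoded beads in droplets and counts mRNA molecules by a random tag (UMI). Since no label says which libraries came from separate animals, p-values reflect only how far these libraries vary, and that variation may be technical.

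After filtering, 24527 of 43388 cells remained, with 3718151 to 7874074 UMIs per library. By the class that the authors wrote into each cell name, they were 3615 neurons, 6445 astrocytes, 4163 oligodendrocyte precursors, 463 newly formed oligodendrocytes, 3887 oligodendrocytes, 3727 microglia, 1463 endothelial cells and 764 mural cells, the contractile and support cells of vessel walls. Among neurons, 1371 had a UMI of Slc32a1, the vesicular GABA transporter, and none of Slc17a6, and 1255 had a UMI of Slc17a6, a vesicular glutamate transporter, and none of Slc32a1. The 51 neurons with both and the 938 with neither were in no transporter group. Of the kept cells' barcodes, 19 occurred in more than 1 library. The 6 neuron markers Snap25, Syt1, Stmn2, Rbfox3, Tubb3 and Meg3 summed to 19670 ± 2466 CPM in neurons and to at most 1205 ± 84.2 CPM in another class (oligodendrocyte precursors; SD, n = 13 each). Astrocyte markers summed to 372 to 4283 CPM in the neurons of the 13 libraries, and their part in the levels below was not tested. Levels are in CPM, a gene's UMIs scaled to a fixed total for each class and library, given as mean ± SD over 13 libraries unless stated. Because the tag is read near the 3′ end, CPM do not depend on transcript length in the way of full-length reads, but capture can differ between genes, so levels of different genes are compared as counted molecules only.

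Sodium channels open within a fraction of a millisecond of depolarization and carry the upstroke of the action potential. Each is built from an alpha subunit, which forms the pore, with beta subunits that tune gating and adhesion. Calcium channels turn depolarization into calcium entry: the alpha1 subunit forms the pore and fixes the current type (L, P/Q, N, R or T), the intracellular beta subunit brings it to the membrane, and the extracellular alpha2delta subunit raises the number of channels at the surface and takes part in synapse formation. Most gamma subunits in brain act on AMPA-type glutamate receptors (as TARPs) more than on calcium channels. In oligodendrocyte precursors, which receive synapses from neurons, sodium and calcium currents are known from recordings.

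Neurons held the highest mean level of most members. Neurons were the class with the highest mean for 28 members, mural cells for 4 (Cacna1c, Cacna1h, Cacnb2 and Scn4b), oligodendrocyte precursors for 2 (Cacng4 and Cacng7), oligodendrocytes for 2 (Cacnb4 and Cacna2d4) and microglia for 1 (Cacna1s, at a low level). Mural cells were above neurons in 13 of 13 libraries for Scn4b, 10 for Cacna1h, 7 for Cacna1c and 5 for Cacnb2. Summed over all members, the level was 5340 ± 489 CPM in neurons, 2888 ± 225 CPM in oligodendrocyte precursors, 749.8 ± 144 CPM in newly formed oligodendrocytes, 519.8 ± 86.3 CPM in mural cells, and 103 to 377 CPM in the other 4 classes. Cacng4 alone gave 1663 CPM of the sum in oligodendrocyte precursors, against 204 CPM in neurons. The sodium channel alpha family summed to 438.6 ± 49.1 CPM in oligodendrocyte precursors and to 2095 ± 304 CPM in neurons. In 18 of the 32 members that could be tested the lowest neuronal library lay above every library of every other class, where 5.77% of all 12200 tested genes did. The edgeR quasi-likelihood test set neurons against the mean of the 7 other classes, and all 32 members that passed its expression filter were higher in neurons (adjusted p under 0.05), where 41.9% of all 12200 tested genes were higher. The filter passes a gene through the class where it is high, so this count describes the members tested and is no support of its own. The 5 members that did not pass it were Cacna1s, Cacna2d4, Cacng6, Scn10a and Scn11a, none of which reached 20 CPM in any class. Of a list of 52 channel partners and calcium handling genes, 45 were higher in neurons and 1 lower of 48 tested; the lower one was Itpr2, a calcium release channel (log2 -2.51 ± 0.15).

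**Figure D1:**
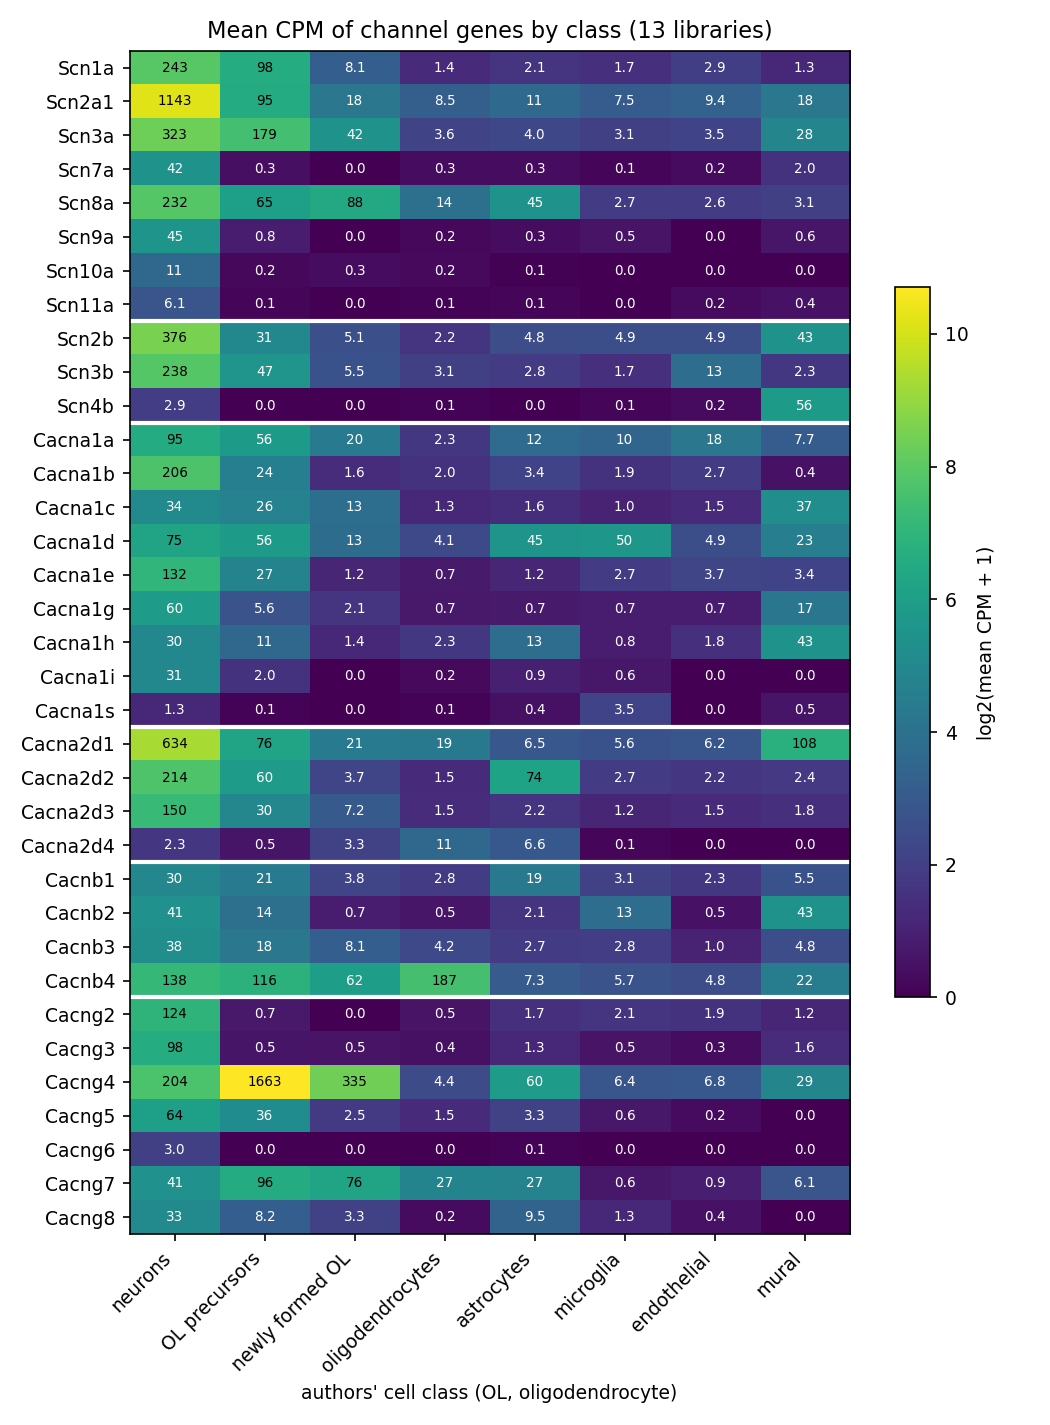
Mean CPM of 35 channel genes (rows, grouped by subunit family with white lines between families) in the 8 classes (columns), with the value printed in each cell and its log2 shown by colour. Neurons lead most rows, oligodendrocyte precursors lead for Cacng4 (1663 CPM) and Cacng7 (95.6 CPM), oligodendrocytes for Cacnb4 (187 CPM), and mural cells for Scn4b (56.4 CPM).

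The sodium channel alpha subunits of neurons were led by Scn2a1, the main alpha subunit of unmyelinated axons and the initial segment. Scn2a1 ranged from 939.9 through a median of 1106 to 1617 CPM in the neurons of the 13 libraries, and reached 94.6 ± 16.6 CPM in oligodendrocyte precursors, the next class. Every neuronal library was above every library of the other classes. The edgeR log2 difference of neurons from the mean of the other classes was 6.32 ± 0.07 (SE, adjusted p = 3.8e-96). Scn3a, an alpha subunit known for its fetal and early postnatal level, stood at 323 ± 53.5 CPM in neurons, Scn1a, the alpha subunit on which fast-spiking interneurons depend, at 243 ± 45.8 CPM, and Scn8a, the alpha subunit of mature nodes and initial segments, at 232 ± 36.8 CPM. Alpha subunits better known from peripheral nerve were counted in neurons at lower levels. Scn9a, a subunit of pain-sensing neurons, stood at 45.1 ± 14.9 CPM and Scn7a, the atypical sodium-sensing channel, at 42.5 ± 16.2 CPM. Scn10a, another subunit of pain-sensing neurons, stood at 10.9 ± 6.71 CPM and Scn11a at 6.06 ± 3.14 CPM. On the GRCm38 assembly, Scn3a, Scn2a1, Scn1a, Scn9a and Scn7a lie between 65457118 and 66784914 of chromosome 2, and Scn10a and Scn11a between 119608456 and 119825456 of chromosome 9. Scn8a lies on chromosome 15.

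Among sodium channel beta subunits, Scn2b, which is disulfide-linked to the pore, was the highest in neurons at 376 ± 55.8 CPM, followed by Scn3b at 238 ± 36.2 CPM. Scn4b, known for resurgent current in other neurons, was near 0 in neurons (2.90 ± 2.19 CPM).

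The pore-forming calcium channel subunits of neurons were led by Cacna1b, the N-type channel of presynaptic terminals, at 206 ± 28.8 CPM, which was 30.9% ± 2.67 of the summed alpha1 level, and by Cacna1e, the R-type channel, at 132 ± 23.5 CPM. Cacna1a, the P/Q-type channel, had 95.3 ± 14.5 CPM and Cacna1d, an L-type channel, 74.7 ± 12.7 CPM. The T-type channels, which open at low voltage, were counted at 60.0 ± 10.5 CPM for Cacna1g, 30.4 ± 4.42 CPM for Cacna1h and 31.3 ± 9.86 CPM for Cacna1i. Cacna1c, the other L-type channel of brain and the channel of heart and vessel wall, stood at 34.1 ± 9.75 CPM. The muscle channel Cacna1s stood at 1.30 ± 1.41 CPM.

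The auxiliary subunits of neurons were led by Cacna2d1, a target of gabapentin-type drugs, at 634 ± 109 CPM. Cacna2d2 stood at 214 ± 51.2 CPM and Cacna2d3 at 150 ± 23.0 CPM, while Cacna2d4, best known from retina, stood at 2.27 ± 1.60 CPM. Cacnb4 led the beta subunits at 138 ± 21.8 CPM, ahead of Cacnb2, Cacnb3 and Cacnb1 at 29.8 to 41.3 CPM. Among TARPs, Cacng4 stood at 204 ± 33.9 CPM, Cacng2 (stargazin) at 124 ± 21.4 CPM, Cacng3 at 97.6 ± 20.2 CPM and Cacng5 at 64.3 ± 15.2 CPM. Cacng2 and Cacng3 had the largest edgeR log2 differences of the tested members between neurons and the other classes (both 7.02, SE 0.14 and 0.16, adjusted p = 1.7e-92 and 7.8e-91).

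Channel genes outside neurons were read beside the neuron markers. Free RNA, doublets and expression by the class itself cannot be told apart in these levels. The median level of these 6 markers was between 1.46% and 5.16% of the neuronal level in the 7 other classes, with a highest marker of 36.9% (Tubb3, in oligodendrocyte precursors). Of the 31 members with at least 20 CPM in neurons, 12 exceeded the highest marker of that class in oligodendrocyte precursors, 14 in astrocytes, 14 in mural cells, 8 in newly formed oligodendrocytes, 6 in microglia, 2 in oligodendrocytes and 0 in endothelial cells. This bar was 3.86% in astrocytes, 5.16% in microglia, 6.08% in mural cells and 15.8% in newly formed oligodendrocytes. It was 19.5% in endothelial cells, 27.2% in oligodendrocytes and 36.9% in oligodendrocyte precursors. The counts therefore cannot be compared between classes, and no share over all genes is given beside them.

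**Figure D2:**
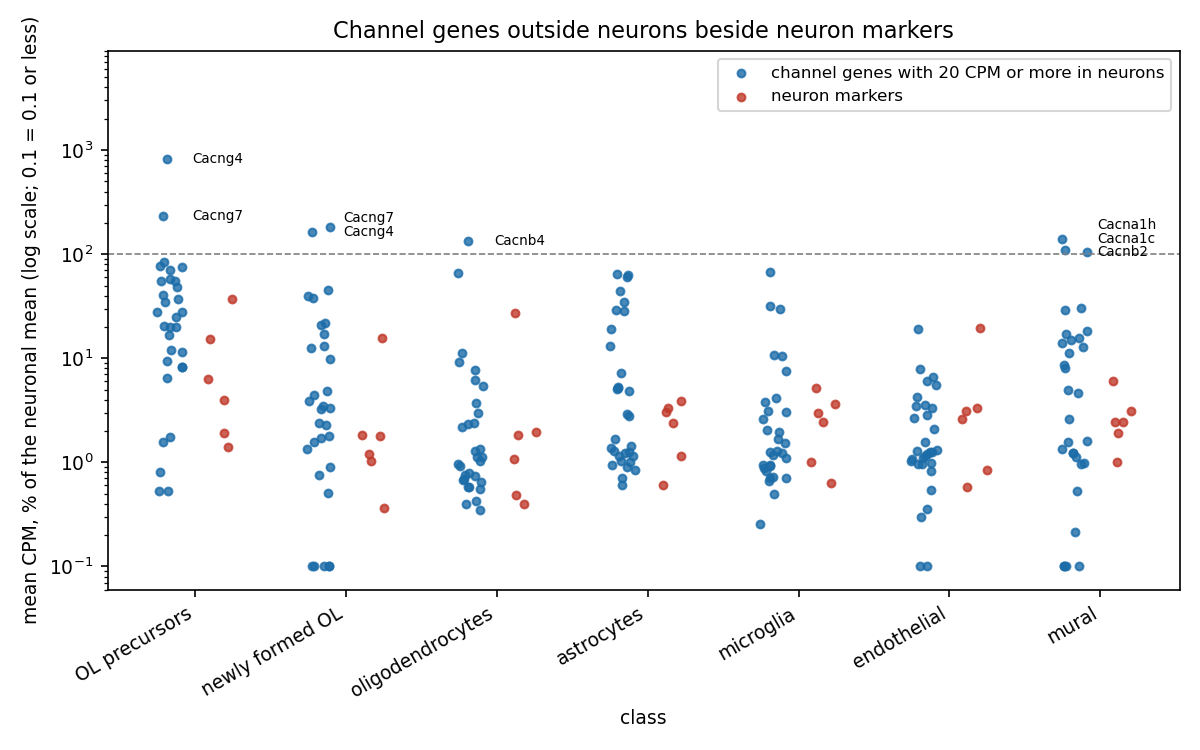
Mean CPM of 31 channel genes (blue) and 6 neuron markers (red) in each non-neuronal class, as a percentage of the neuronal mean on a log axis, with genes at 100% or more named and points at 0.1% or less drawn at 0.1%. The highest points are Cacng4 and Cacng7 in oligodendrocyte precursors (813.4% for Cacng4), and in endothelial cells all 31 channel genes lie below the highest neuron marker (19.5%).

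Oligodendrocyte precursors stood apart from the other non-neuronal classes. Against the mean of the 6 other non-neuronal classes, 27 of 32 tested members were higher in oligodendrocyte precursors and 0 were lower (edgeR, adjusted p under 0.05; 28 had an unadjusted p under 0.05), where 44.3% of all tested genes were higher and 25.7% lower. The median log2 difference was 2.22 over the members tested and 0.13 over all genes tested. With DESeq2, 4 members were lower in oligodendrocyte precursors. Of the partner list, 35 were higher and 7 lower of 48 tested, with the AMPA receptor subunits Gria3 (log2 5.09 ± 0.09) and Gria4 (4.69 ± 0.09) among the highest. Cacng4, the TARP of this class, had 1287, 1706 and 1855 CPM as lowest, median and highest library in oligodendrocyte precursors, against 131.1, 196.3 and 255.9 CPM in neurons. The lowest precursor library was above every neuronal library, and the edgeR log2 difference from the other non-neuronal classes was 5.96 ± 0.09 (SE, adjusted p = 2.9e-75). Newly formed oligodendrocytes held 335 ± 109 CPM of Cacng4 and oligodendrocytes 4.43 ± 3.13 CPM. Cacng7, another TARP, had 95.6 ± 14.7 CPM in oligodendrocyte precursors, 76.1 ± 27.0 CPM in newly formed oligodendrocytes and 41.5 ± 7.86 CPM in neurons, and it was above neurons in 13 of 13 libraries for precursors and in 12 of 13 for newly formed oligodendrocytes.

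The sodium channel alpha subunits of oligodendrocyte precursors were led by Scn3a at 179 ± 26.9 CPM, with Scn1a at 98.2 ± 12.4 CPM, Scn2a1 at 94.6 ± 16.6 CPM and Scn8a at 64.6 ± 9.72 CPM. The order thus differed from that of neurons, where Scn2a1 led by far. Against the other non-neuronal classes the edgeR log2 difference was 5.02 ± 0.13 for Scn1a (SE, adjusted p = 1.1e-78), 4.20 ± 0.10 for Scn3a (adjusted p = 9.0e-81) and 2.76 ± 0.11 for Scn2a1 (adjusted p = 5.9e-43). Among alpha1 subunits of this class, Cacna1d and Cacna1a stood highest at 56.5 ± 13.4 and 55.6 ± 8.57 CPM, and Cacna1c reached 26.0 ± 5.10 CPM. Cacnb4 stood at 116 ± 15.5 CPM and Cacna2d1 at 75.6 ± 10.8 CPM. Of the tested members, those that did not pass in this contrast included Cacng2, Cacng3, Scn4b and Scn7a.

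Along the oligodendrocyte classes the members went separate ways. Scn8a had 87.8 ± 34.0 CPM in newly formed oligodendrocytes, 64.6 ± 9.72 CPM in precursors and 14.5 ± 6.53 CPM in oligodendrocytes, and was higher in newly formed oligodendrocytes than in the mean of the 6 other non-neuronal classes (edgeR log2 difference 2.91 ± 0.18, adjusted p = 5.0e-32). In this contrast 9 of 32 members were higher and 5 lower, where 30% and 28.7% of all tested genes were. Cacnb4 had 129.1, 185.0 and 242.5 CPM as lowest, median and highest library in oligodendrocytes, against 104.8, 130.5 and 181.2 CPM in neurons. The 2 ranges overlapped, and oligodendrocytes were above neurons in 12 of 13 libraries. The gene's 3′ end lies over the opposite-strand gene A430018G15Rik, which stood at 7.31 ± 2.37 CPM in oligodendrocytes; no source used here states the strand that was counted, so the value is uncertain, as for the other overlaps below. Cacnb4 was 3.87 ± 0.09 higher on the log2 scale in oligodendrocytes than the mean of the 6 other non-neuronal classes (edgeR, adjusted p = 1.0e-87). In this contrast of oligodendrocytes 4 members were higher and 14 lower, where 37.6% of all tested genes were higher and 33.9% lower.

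Astrocytes held Cacna2d2 at 73.9 ± 12.1 CPM, Cacng4 at 60.0 ± 14.1 CPM, Cacna1d at 45.1 ± 11.3 CPM and Scn8a at 44.7 ± 12.5 CPM. Cacna2d2 was 4.11 ± 0.13 higher on the log2 scale in astrocytes than the mean of the other non-neuronal classes (edgeR, adjusted p = 8.6e-71). Its level was 34.5% of the neuronal level in astrocytes and 27.9% in oligodendrocyte precursors. The lowest astrocyte library (48.2 CPM) lay below the highest library of another non-neuronal class (72.2 CPM). In astrocytes 11 of 32 members were higher and 10 lower, where 37.4% and 32.8% of all tested genes were. Microglia held Cacna1d at 49.9 ± 8.03 CPM, 1.87 ± 0.15 higher on the log2 scale than the mean of the other non-neuronal classes (edgeR, adjusted p = 5.6e-23). Its level was 66.9% of the neuronal level in microglia, 75.6% in oligodendrocyte precursors and 60.4% in astrocytes. The libraries overlapped (lowest of microglia 37.2 CPM, highest of another non-neuronal class 81.2 CPM). In microglia 4 members were higher and 15 lower, where 36.7% and 36.9% of all tested genes were. Cacna1d overlaps Chdh on the opposite strand near its 3′ end, and Chdh was low in microglia (1.76 ± 2.05 CPM) and astrocytes (6.80 ± 3.26 CPM). In endothelial cells no member reached 20 CPM, and 2 members were higher with 15 lower, where 28.0% and 37.9% of all tested genes were. Scn3b stood at 13.3 ± 12.2 CPM there, 1.38 ± 0.31 higher on the log2 scale than the mean of the other non-neuronal classes (edgeR, adjusted p = 3.5e-05). Its lowest endothelial library held 0 CPM. Every library of oligodendrocyte precursors (lowest 40.3 CPM) was above every endothelial library for Scn3b.

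Mural cells held calcium channel genes and the sodium channel beta subunits Scn4b and Scn2b. Against the mean of the 6 other non-neuronal classes 9 of 32 members were higher and 10 lower, where 22.8% and 30.3% of all tested genes were. Scn4b had 35.5, 50.2 and 86.0 CPM as lowest, median and highest library in mural cells, against 0, 3.15 and 5.82 CPM in neurons, and no libraries overlapped. The log2 difference from the other non-neuronal classes was 7.56 ± 0.29 (edgeR, adjusted p = 2.2e-50). Scn4b passed the expression filter through mural cells, where it is high, so this test is no support of its own. Its level was 0% of the neuronal level in astrocytes, oligodendrocyte precursors and newly formed oligodendrocytes, so the size of this log2 difference is uncertain. Scn2b stood at 42.6 ± 26.3 CPM in mural cells. It was 2.65 ± 0.25 higher on the log2 scale than in the 6 other non-neuronal classes (edgeR, adjusted p = 5.7e-19), with libraries that overlapped theirs. Cacna2d1 stood at 108 ± 32.5 CPM, Cacnb2 at 43.2 ± 17.8 CPM, Cacna1h at 43.0 ± 23.0 CPM and Cacna1c at 37.2 ± 14.1 CPM. All 4 were higher than the mean of the other non-neuronal classes (log2 2.79 to 4.02), but their libraries overlapped those classes too. The lowest mural library held 0 CPM of Cacna1h. Cacna1c, Cacna2d1 and Cacnb2 are subunits of the L-type channel by which smooth muscle contracts. Vessel-wall cells are of 2 kinds, smooth muscle cells, which have Acta2, and pericytes. Acta2 was detected in 331 of the 764 mural cells, with a median of 2535 UMIs a cell, against 1388 in the 433 others. All 95 Scn4b UMIs of mural cells were in cells with Acta2, with 0 in the others. The UMIs in cells with Acta2 and in cells without were 61 and 11 for Cacnb2, 57 and 14 for Cacna1h, 143 and 44 for Cacna2d1, 43 and 19 for Cacna1c, 44 and 5 for Scn3a, and 34 and 36 for Scn2b. Cells with Acta2 also held more UMIs in all (950068 against 727361).

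The 2 transporter groups of neurons differed in their channel genes. In Slc32a1 neurons, against Slc17a6 neurons, 8 members were higher and 2 lower of 29 tested (edgeR, library as a block, adjusted p under 0.05), where 8.75% of all 6191 tested genes were higher and 8.88% lower. Genes used to choose the cells are no result. Astrocyte markers were at like levels in Slc32a1 and Slc17a6 neurons (769 and 791 CPM), while oligodendrocyte markers summed to 162 to 619 CPM in Slc32a1 neurons and to 209 to 2261 CPM in Slc17a6 neurons, and their part in the differences was not tested.

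Among the tested members, 2 alpha2delta genes had the largest log2 differences, in opposite directions. Cacna2d1 had 217.4, 304.0 and 394.3 CPM as lowest, median and highest library in Slc32a1 neurons, against 867.1, 1088 and 1588 CPM in Slc17a6 neurons. It was lower in all 13 libraries and the ranges did not overlap (log2 difference -1.81 ± 0.08, edgeR, adjusted p = 2.4e-25). Cacna2d3 had 166.8, 237.8 and 373.3 CPM as lowest, median and highest library in Slc32a1 neurons, against 63.0, 85.3 and 122 CPM in Slc17a6 neurons. It was higher in all 13 libraries, again with no overlap (log2 difference 1.45 ± 0.11, adjusted p = 1.3e-15). Every Slc32a1 library was above every Slc17a6 library in 0.485% of all tested genes and below in 0.436%. The alpha2delta family as a whole summed to 738 ± 128 CPM in Slc32a1 neurons and 1484 ± 190 CPM in Slc17a6 neurons, while the alpha1 family summed to 698 ± 88.7 and 694 ± 90.0 CPM. Cacna2d2 had 182 ± 46.7 CPM in Slc32a1 neurons and 296 ± 135 CPM in Slc17a6 neurons (log2 difference -0.55 ± 0.21, adjusted p = 0.102), and the ranges overlapped.

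The promoters of these 2 genes and of Scn10a, described below, are shown because the libraries of their transporter groups did not overlap. Each is the 250 bases before the RefSeq transcription start on GRCm38.p6, written 5′ to 3′ along the gene's strand, with the GC box (GGGCGG on either strand) in capitals.
Cacna2d1, chr5:15934441-15934690, plus strand: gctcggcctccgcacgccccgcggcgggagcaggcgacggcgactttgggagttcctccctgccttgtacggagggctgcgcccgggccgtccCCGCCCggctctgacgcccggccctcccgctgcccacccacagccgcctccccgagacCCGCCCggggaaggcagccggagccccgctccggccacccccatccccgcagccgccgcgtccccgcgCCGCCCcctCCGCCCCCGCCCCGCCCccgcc
Cacna2d3, chr14:29721865-29722114, minus strand: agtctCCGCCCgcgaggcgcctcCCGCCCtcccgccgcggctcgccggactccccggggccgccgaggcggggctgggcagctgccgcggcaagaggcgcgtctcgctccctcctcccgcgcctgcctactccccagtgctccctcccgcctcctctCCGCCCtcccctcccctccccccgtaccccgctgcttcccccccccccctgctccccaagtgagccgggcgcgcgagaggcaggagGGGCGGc
Scn10a, chr9:119719033-119719282, minus strand: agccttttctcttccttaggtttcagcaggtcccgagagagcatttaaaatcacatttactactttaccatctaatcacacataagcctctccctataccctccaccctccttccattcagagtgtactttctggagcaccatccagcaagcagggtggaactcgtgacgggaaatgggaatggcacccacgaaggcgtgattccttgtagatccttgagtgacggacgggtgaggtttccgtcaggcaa
The windows held 6, 4 and 0 GC boxes at 82.4%, 80.0% and 49.6% GC. By its GENCODE position Scn10a starts at 119719322 of chromosome 9, so its window lay inside the gene by that annotation. The other windows ended where their GENCODE genes start. A GC box was in 32.7% of 32851 promoter windows in the table and in 14 of 39 windows of the members (28 members had at least 1 window). The CCAAT box (CCAAT on either strand) was in 33.8% of all windows, in 9 of the 39 and in none of the 3 above.

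**Figure D3:**
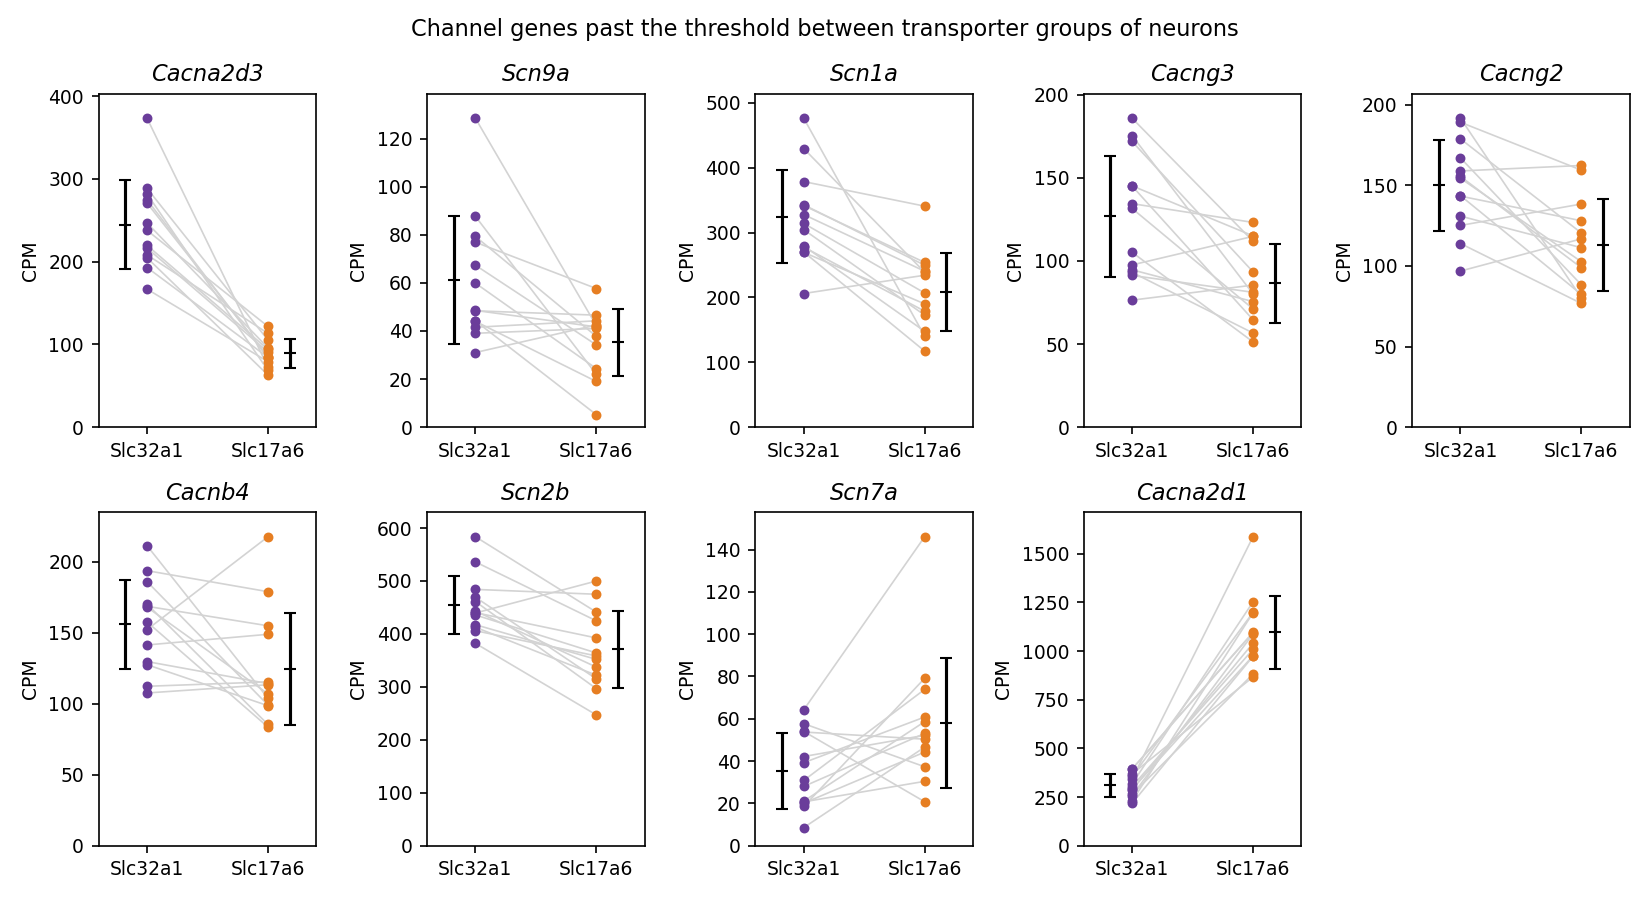
CPM of 9 of the 10 channel genes past the threshold in Slc32a1 neurons (left, purple) and Slc17a6 neurons (right, orange), 1 point per library with grey lines joining the same library, and black bars for mean ± SD over 13 libraries; axes start at 0. Cacna2d3 is higher and Cacna2d1 lower in every Slc32a1 group, with no overlap, while the ranges of the other 7 genes overlap.

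The tested sodium channel genes had smaller log2 differences than these 2 alpha2delta genes. Scn1a had 206.1, 314.2 and 476.4 CPM as lowest, median and highest library in Slc32a1 neurons, against 117.3, 206.9 and 340.8 CPM in Slc17a6 neurons, and was higher in 12 of 13 libraries with overlapping ranges (log2 difference 0.66 ± 0.11, edgeR, adjusted p = 5.0e-06). Scn9a stood at 61.3 ± 26.7 CPM in Slc32a1 neurons and 35.3 ± 14.02 CPM in Slc17a6 neurons (log2 0.70 ± 0.19, adjusted p = 0.00464); it overlaps the antisense gene Gm13629, which was lower in Slc32a1 neurons (5.58 ± 3.83 CPM) than in Slc17a6 neurons (10.3 ± 5.37 CPM) by its means. Scn2b was 0.34 ± 0.08 higher in Slc32a1 neurons on the log2 scale (adjusted p = 0.00228). Scn7a was lower in Slc32a1 neurons at 35.3 ± 17.8 CPM, against 58.0 ± 30.9 CPM in Slc17a6 neurons (log2 -0.74 ± 0.20, adjusted p = 0.00610). Scn2a1, the highest alpha subunit, had 1247 ± 183 CPM in Slc32a1 neurons and 1296 ± 262 CPM in Slc17a6 neurons (log2 -0.02 ± 0.07, adjusted p = 0.905).

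Among the TARPs, Cacng3 (0.55 ± 0.13, adjusted p = 0.00101) and Cacng2 (0.42 ± 0.12, adjusted p = 0.00969) were higher in Slc32a1 neurons on the log2 scale in edgeR, as was the calcium channel beta subunit Cacnb4 (0.36 ± 0.12, adjusted p = 0.0309). Cacnb3 missed the threshold at -0.57 ± 0.21 (adjusted p = 0.0502). Of the partner list, 9 were higher and 9 lower of 41 tested, where 8.75% and 8.88% of all 6191 tested genes were. The AMPA receptor subunits Gria1 (0.83), Gria4 (0.83) and Gria3 (0.55), on which TARPs act, were among the higher ones on the log2 scale, with the calcium buffer Calb1 (0.84) and the channel-binding Fgf12 (0.52). The AMPA receptor subunit Gria2 had 3833 ± 534.1 CPM in Slc32a1 neurons and 3543 ± 496.5 CPM in Slc17a6 neurons, with overlapping ranges. The lower ones included the calcium buffer Calb2 (-1.49), the sodium-calcium exchanger Slc8a2 (-0.66), Fam155a, a subunit of the NALCN leak channel (-0.63), the calcium release channel Itpr1 (-0.56) and the calmodulin gene Calm2 (-0.48).

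Scn10a fell below the expression filter and was not tested. It had 98 UMIs in Slc32a1 neurons and 1 UMI in Slc17a6 neurons, a ratio of 91.6 (95% counting interval 16.1 to 3654) after allowing for the total UMIs of the groups. Per library it had 5.12, 18.5 and 58.9 CPM as lowest, median and highest in Slc32a1 neurons, and 0 CPM in all but 1 library of Slc17a6 neurons, so the 2 groups did not overlap.

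Neurons were also grouped into 18 clusters with the channel genes left out, and the members' levels in them are given as a description. Scn10a had 103 UMIs in cluster 9 of 163 cells, led by Six3, Adra2a and Tshz1, where its pooled level was 232 CPM (95% exact Poisson interval 190 to 282 CPM), and at most 4 UMIs in any other cluster. In the 12 libraries with at least 5 cells of cluster 9, Scn10a had 70.1, 226 and 606 CPM as lowest, median and highest. The same cluster held the highest Cacng5 (341 CPM) and Cacnb4 (336 CPM). Cacna2d1 was highest in cluster 2 (2014 CPM; led by Adcyap1, Bdnf and Trhr) and cluster 6 (1365 CPM; led by Slc17a7, Angpt1 and Ntng1), in both of which most cells had Slc17a6. It did not divide the clusters by transporter. Cluster 9, where most cells had Slc32a1, held 808 CPM of Cacna2d1. Clusters 8 and 16, where most cells had Slc17a6, held 687 and 94 CPM (the latter from 11 UMIs). Cacna2d3 was at 218 to 319 CPM in the 6 clusters with Slc32a1 in at least 50% of cells and Slc17a6 in under 20%, and at 0 to 140 CPM in the 5 with the reverse. Cluster 8 (196 cells; led by Ndnf, Nhlh2 and Trp73), where most cells had Slc17a6, held 1312 CPM of Cacna2d2 (848 to 1641 CPM over 12 libraries), 168 CPM of Scn2a1, 11 CPM of Scn1a and 11 CPM of Cacna1e. The small Slc17a6 cluster 16 (28 cells) was also low for Scn2a1 (163 CPM) and Scn1a (34 CPM, from 4 UMIs), with 463 CPM of Cacna2d2. Scn1a was highest in cluster 10 (754 CPM; led by Cnr1, Kit and Erbb4) and cluster 11 (588 CPM; led by Npy, Moxd1 and Fam159b). Clusters 4, 15, 17 and 18 were led by genes of glia or ependyma, cluster 12 held cells with a median of 13199 UMIs in which both transporters were equally frequent, and cluster 13 held low counts (median 954 UMIs a cell).

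**Figure D4:**
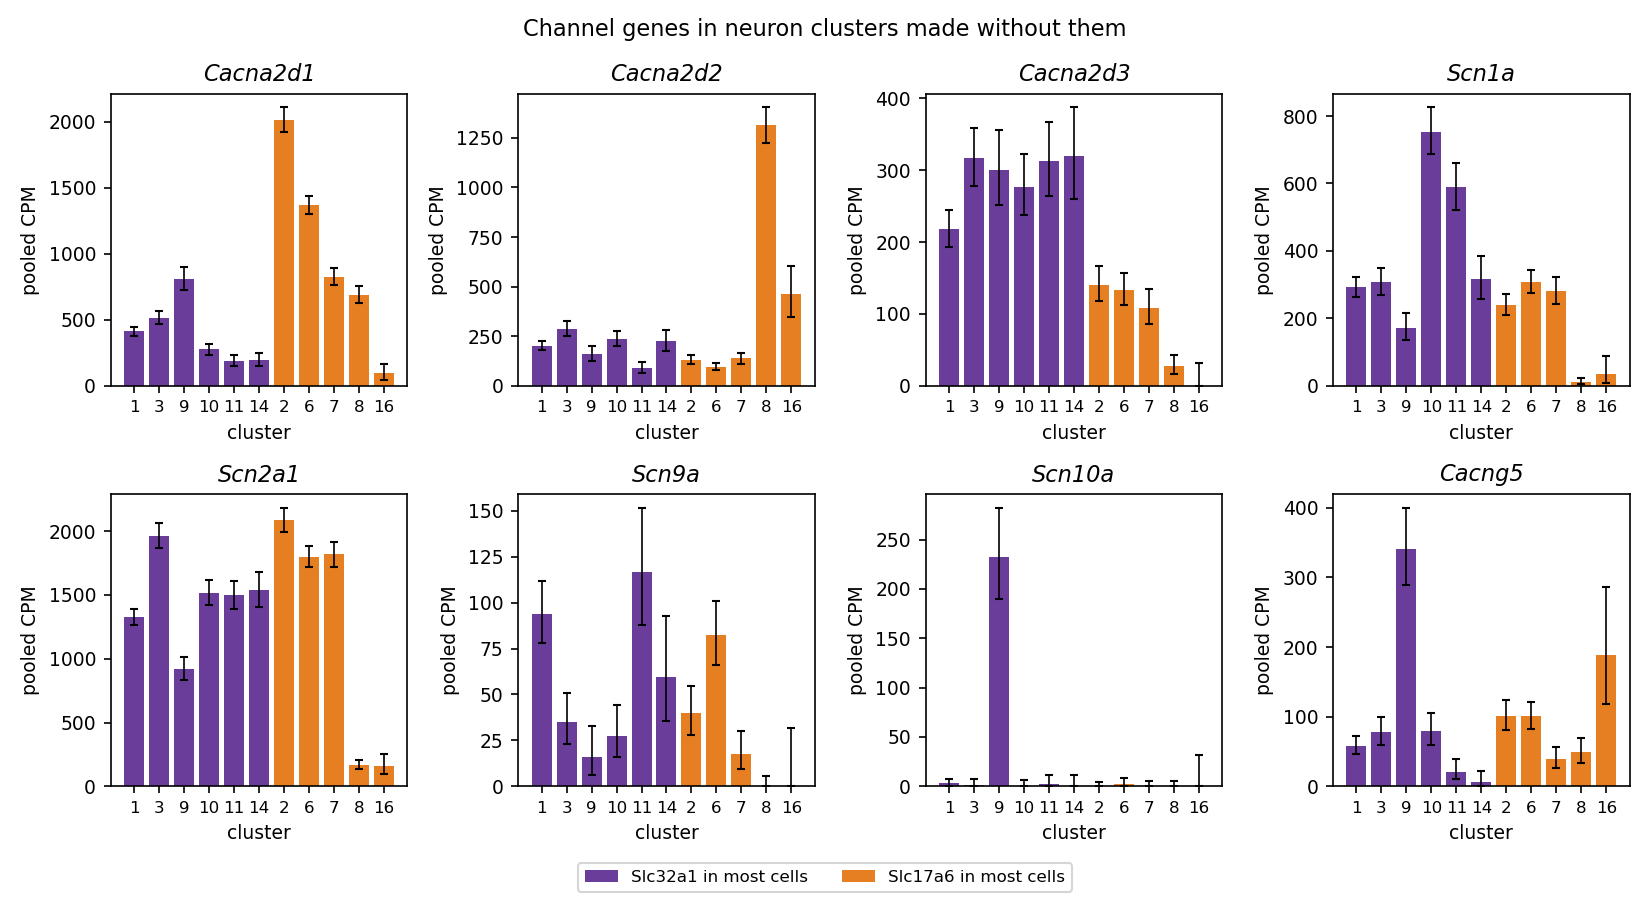
Pooled CPM of 8 channel genes in the clusters where 1 transporter was detected in at least 50% of cells and the other in under 20%, coloured by that transporter, with 95% exact Poisson intervals that cover counting error only. Scn10a is highest in cluster 9 (232 CPM, at most 4 UMIs in any other cluster), Cacna2d2 peaks in cluster 8 (1312 CPM), and Cacna2d3 is lower in every Slc17a6 cluster than in every Slc32a1 cluster.

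Between the sexes, no member passed the threshold in any class. In neurons 0 of 31 tested members differed between male and female libraries (edgeR, adjusted p under 0.05), 1 had an unadjusted p under 0.05, DESeq2 called 0 of 37 with 1 at an unadjusted p under 0.05, and 0.0623% of all 9635 tested genes differed. Scn3b, the member with the smallest p, stood at 211 ± 26.1 CPM in males (SD, n = 6) and 260 ± 27.1 CPM in females (SD, n = 7), with overlapping ranges (174.5 to 246.9 and 216.9 to 289.0 CPM). Its log2 difference, male minus female, was -0.33 ± 0.12 (edgeR, adjusted p = 0.699). The median log2 difference was -0.13 over the tested members and -0.01 over all tested genes. The sexes held unlike shares of some neuron clusters that the summed counts mix. Cluster 12, with a median of 13199 UMIs a cell, had 94 male and 48 female cells, and cluster 8 had 79 and 117. Scn2a1 stood at 589 CPM in cluster 12 and 168 CPM in cluster 8. Among 9-week libraries alone, 0 of 32 members passed and 2 had an unadjusted p under 0.05. In Slc32a1 neurons 0 of 31 members passed with 4 at an unadjusted p under 0.05 (DESeq2 0 and 2), where 0.0892% of all genes passed, and in Slc17a6 neurons 0 of 29 passed with 0 at an unadjusted p under 0.05 (DESeq2 0 and 0), where 0.0832% did. In oligodendrocyte precursors 0 of 23 passed with 3 at an unadjusted p under 0.05 (DESeq2 0 and 2), where 0.131% did.

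In the other classes fewer members could be tested: 10 in astrocytes, 6 in oligodendrocytes, 4 in newly formed oligodendrocytes, 2 in microglia, 1 in mural cells and 0 in endothelial cells. None passed in edgeR, with 0 at an unadjusted p under 0.05 in each, while DESeq2 called 0 with 1 at an unadjusted p under 0.05 in mural cells and 0 in the others. The background was 1.16% of all tested genes in astrocytes, 0.261% in oligodendrocytes, 0.0889% in newly formed oligodendrocytes, 0.349% in microglia, 0.123% in mural cells and 1.28% in endothelial cells. In simulated data with 2-fold changes, the test in neurons recovered 51.5% of 200 changed genes. The simulation gave every gene the same fixed dispersion, not its own, and changed only genes above a minimum mean count. This share is therefore not the power for the members. The difference between transporter groups was also compared between the sexes with an interaction term, added after the data had been seen: 0 of 31 members passed (edgeR), 1 had an unadjusted p under 0.05, and 0.0135% of all 7388 tested genes passed. That member, Cacna2d1, had a difference more negative by 0.42 ± 0.16 on the log2 scale in males than in females (adjusted p = 0.984).

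**Figure D5:**
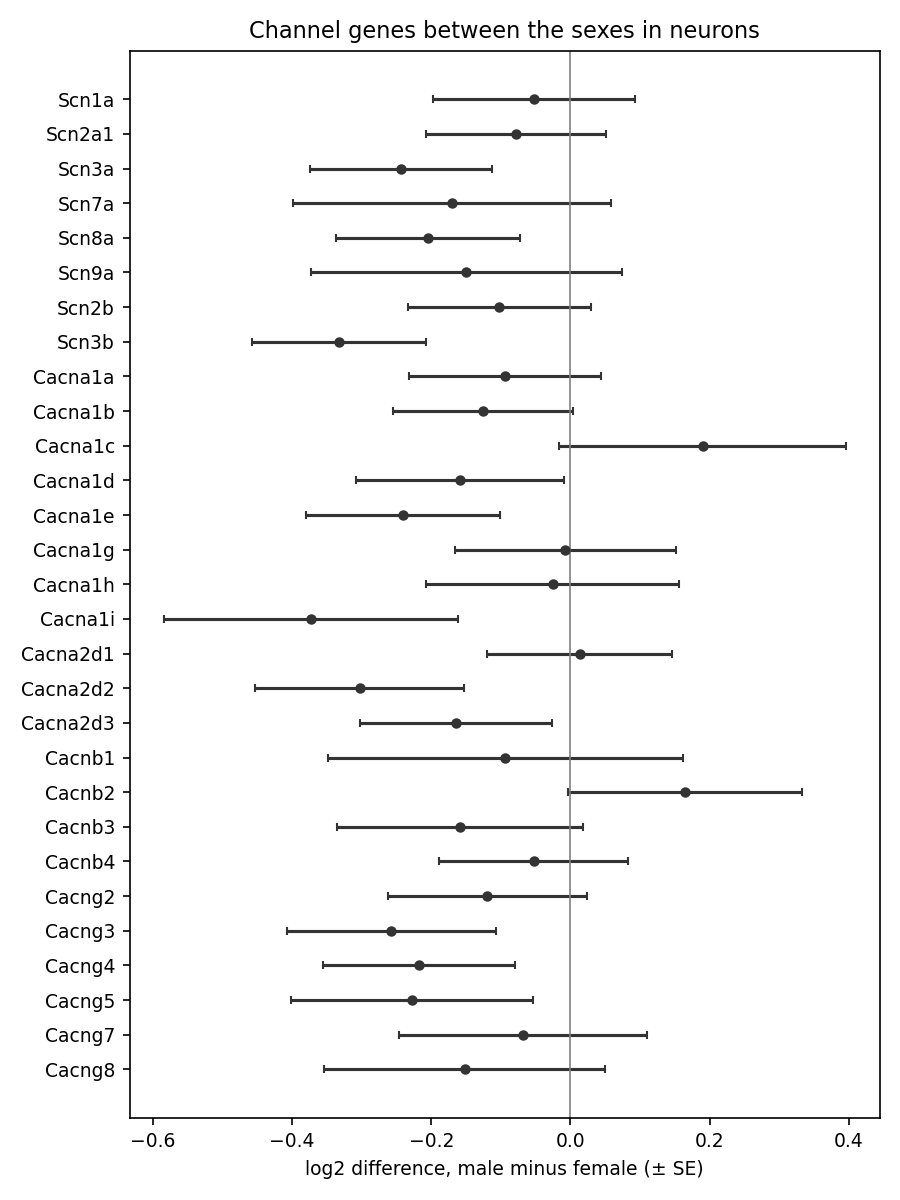
Log2 difference, male minus female, with SE, of 29 of the 31 tested channel genes in neurons from edgeR on 6 male and 7 female libraries, in the order of the subunit families. All lie between -0.37 and 0.19, and none passed the adjusted threshold.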

How the data were processed

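Drop-seq of dissociated medial amygdala gave UMI counts per gene and cell, deposited by the authors as whole numbers with no normalization. The cell names carry the library and the authors' class. Per the submitters' processing notes, bcl2fastq 2.17.1.14 and STAR 2.5.0a were used with mm10. The collapsing of UMIs, the choice of cells and the strand counted are not given in the sources used here. Cells with at least 500 genes were kept and 281 Scrublet doublets (1.13%) removed.

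Counts were summed per library and class (at least 10 cells) and tested with the two-sided quasi-likelihood test of edgeR 4.0.16 (TMM, filterByExpr, robust dispersion; R 4.3.3), Benjamini-Hochberg over all genes tested, threshold 0.05. The library was a block between classes and transporter groups, and the sexes were compared without a block. The SE is the log2 difference over the square root of F. DESeq2 1.42.0 and other cell filters, scalings and left-out libraries were alternatives. Levels are unscaled CPM. Neurons were clustered with scanpy 1.11.5 (2000 variable genes, 30 components, 15 neighbours, Leiden resolution 1) without channel and sex-linked genes. On simulated 2-fold changes the test recovered 98.5% of 200 changed genes for neurons against the other classes (12040 genes run) and 92.5% for the transporter groups (6126 genes). All simulations used the same fixed dispersion for every gene and changed only genes above a minimum mean count, so these shares need not hold for the members. Intervals and the floor of 3 UMIs that a count of 0 allows cover counting error only. Genes named were all members past the threshold or with at least 20 CPM in a class, Scn10a, and up to 6 partner genes per direction; some of these genes are not reported here. The members and lists were chosen with earlier results of these data known. Positions are from GENCODE M21 and promoters from RefSeq, on GRCm38.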

Additional observations from a re-analysis of the deposited data

Results flagged for a closer look

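In the neurons of 6 male and 7 female libraries, 58 groups of values of members were checked for a library far from the rest, and 6 were flagged, where chance flags about 1 in 20. Male replicate 2 was high for Cacna1e (171.1 CPM, against a male median of 114.8 CPM) and for Cacna2d1 (919.3 CPM, against 603.4 CPM). Female replicate 1 was high for Scn2a1 (1617 CPM, against a female median of 1115 CPM), Scn3a (460.3 CPM, against 334.8 CPM) and Scn7a (91.24 CPM, against 38.32 CPM). Male replicate 1 was low for Scn3a (225.0 CPM, against 305.4 CPM). No member passed between the sexes in neurons with any 1 of these libraries left out.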

How the results depend on the processing

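Members higher in neurons than in the other classes numbered 30 to 37, with 0 lower, under every alternative run (30 with cells of at least 1000 genes, 34 with DESeq2, 37 with no filter, 32 under the others, among them each library left out). No scaling factors, leaving out neurons of over 10000 UMIs and the interaction term were added after seeing the data. Of 6138 values of single genes under the alternatives, 5845 kept their direction and side of the threshold, 193 lost the call, 99 gained one and 1 reversed (Scn9a, oligodendrocyte precursors against the 6 other non-neuronal classes, -0.08799 on the log2 scale with DESeq2), for which the cause was not tested. Counts that moved by over 1.5 times, with the cause not tested, were these. Members lower in oligodendrocyte precursors numbered 4 with DESeq2 and 0 in edgeR. Members lower in newly formed oligodendrocytes numbered 3 with cells of at least 1000 genes and 3 with no scaling factors, and 3 to 7 with a library left out (3 without female replicate 2 or female replicate 7). Members higher in oligodendrocytes numbered 2 with no scaling factors. Members higher in endothelial cells numbered 1 to 2 with a library left out (1 without male replicate 1). Members lower in mural cells numbered 3 with DESeq2, 3 with cells of at least 1000 genes, 6 with no scaling factors, and 5 to 10 with a library left out (5 without male replicate 2). Members lower in Slc32a1 neurons numbered 4 with all deposited cells, 1 with cells of at least 1000 genes, 1 with no library block, and 2 to 4 with a library left out (4 without female replicate 6).

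RLE or no scaling moved the share of higher calls over all genes by over 10 points from its TMM value in 4 contrasts: TMM, RLE and no scaling gave 52.6%, 39.7% and 27.4% in oligodendrocytes, 63.3%, 63.8% and 79.9% in oligodendrocyte precursors, 51.1%, 48.3% and 64.1% in newly formed oligodendrocytes, and 42.9%, 52.4% and 57.3% in mural cells. Between the sexes 0 members passed in every class with the replicate block; the numbers do not pair the libraries (correlations of same-numbered libraries -0.08 to 0.14), and 1 of 6 male libraries correlated best with its own number. Low counts limit the tests outside neurons: members summed to 316 UMIs in endothelial cells, 869 in mural cells, 1411 in microglia and 1911 in newly formed oligodendrocytes.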
